A study of Rattus norvegicus with 11 samples.

Results

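Transcripts of 4 cell division genes, Mki67, Top2a, Cdk1 and Ccnb1, were followed in right ventricles from Sprague Dawley rats that had received either monocrotaline or vehicle. Monocrotaline, a toxin from Crotalaria plants, damages small arteries of the rat lung, and the right ventricle then has to pump against a raised pressure. Vehicle replicates 1 to 6 gave 6 libraries and monocrotaline replicates 1, 2, 3, 4 and 6 gave 5. Dose, time after dosing, age and sex are not stated in the labels. The genes were chosen by Ensembl ID out of 37550 features in the deposited count table. All 4 IDs were in the table, and all 4 were among the 15099 features that passed the filter on low counts. Mki67 is ENSRNOG00000028137, Top2a is ENSRNOG00000053047, Cdk1 is ENSRNOG00000000632 and Ccnb1 is ENSRNOG00000058539. These symbols came with the choice of IDs, and neither the files nor the RefSeq table used here pairs an Ensembl ID with a symbol.

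The products of these genes act in the later part of the cell cycle. Cyclin B1, made from Ccnb1, binds and switches on the kinase Cdk1, and this pair drives a cell into mitosis. Topoisomerase II alpha, made from Top2a, untangles replicated DNA so that chromosomes can be condensed and pulled apart, and Ki-67, made from Mki67, coats mitotic chromosomes and is the usual stain for cycling cells. Resting cells keep such genes silent through the DREAM complex, which holds promoters at E2F sites and at an element called the cell cycle genes homology region (CHR), while the factor NF-Y binds CCAAT boxes in many of the same promoters. Most adult heart muscle cells have left the cell cycle, and some replicate their DNA without dividing, whereas fibroblasts, endothelial cells and leukocytes of the heart can divide.

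The promoters are shown because the 4 transcripts moved together, as described below, and because promoters of this class share known elements. Whether these elements have a part in that movement was not tested. The windows were the 250 bases before the transcription start used in the RefSeq promoter table (build GRCr8), and all 4 symbols were found in that table. They were searched on both strands for the CCAAT box (CCAAT), the CHR (TTTGAA) and an E2F-type site (TTTNGCGC). Matches are in capitals, which read ATTGG or TTCAAA where the match lies on the opposite strand, and each sequence runs 5′ to 3′ along the gene's strand. The window of Top2a, chr10:84473094-84473343, minus strand, and that of Ccnb1, chr2:33655226-33655475, minus strand, lie outside the annotated genes and are printed whole. The Cdk1 window on the plus strand is printed as chr20:19265043-19265251, without its last 41 bases, which lie inside the annotated gene. The whole Mki67 window lies inside the outermost annotated bounds of that gene, so only 30 bases around its CHR matches are printed, chr1:199952682-199952711, minus strand.
Mki67: aTTTGAAccgccgttttcgTTTGAATTGGg
Top2a: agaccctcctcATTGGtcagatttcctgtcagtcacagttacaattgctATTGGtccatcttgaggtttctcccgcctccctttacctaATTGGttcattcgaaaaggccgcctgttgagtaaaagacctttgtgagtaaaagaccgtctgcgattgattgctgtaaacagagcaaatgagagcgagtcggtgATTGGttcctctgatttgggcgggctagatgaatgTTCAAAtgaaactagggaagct
Cdk1: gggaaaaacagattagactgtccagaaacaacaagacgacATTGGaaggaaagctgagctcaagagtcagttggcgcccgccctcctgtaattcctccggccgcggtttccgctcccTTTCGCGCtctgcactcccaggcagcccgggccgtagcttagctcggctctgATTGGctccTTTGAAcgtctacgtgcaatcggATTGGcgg
Ccnb1: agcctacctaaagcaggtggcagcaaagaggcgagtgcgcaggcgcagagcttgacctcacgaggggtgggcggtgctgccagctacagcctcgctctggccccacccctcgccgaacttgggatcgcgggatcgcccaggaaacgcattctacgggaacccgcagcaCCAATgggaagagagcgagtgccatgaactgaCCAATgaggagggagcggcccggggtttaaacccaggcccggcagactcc

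Every one of the 4 windows held at least 2 CCAAT boxes. There were 4 in the Mki67 window, 4 in Top2a, 3 in Cdk1 and 2 in Ccnb1. Among all 33469 promoter windows of the same length, 34% held at least 1 CCAAT box, 9.42% at least 2 and 2.52% at least 3. The CHR letters occurred in 2 places in Mki67, in 1 in Top2a and in 2 in Cdk1, and 16.2% of all windows held at least 1. In Mki67 the CHR match nearest the start, at bases 99 to 94 before it, overlapped a CCAAT box at bases 94 to 90 by 1 base. The CHR match of Top2a lay 22 to 17 bases before the start, and those of Cdk1 lay at 72 to 67 and, in the part not printed, at 16 to 11. At least 2 CCAAT boxes together with a CHR, the combination in Mki67, Top2a and Cdk1 but not Ccnb1, were found in 1.59% of all windows. At least 1 CCAAT box together with a CHR was found in 5.87%. The elements were searched because promoters of this class are known to share them, so these shares are a description only. The E2F-type letters occurred once, in Cdk1 at bases 133 to 126, and in 1.04% of all windows. The letters TTTGAA and TTTNGCGC were not found in the Ccnb1 window. Other spellings of these elements were not searched, so it was not shown that Ccnb1 lacks them. A match describes these letters only, and no binding was measured.

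All 4 transcripts rose with monocrotaline, each by close to 4-fold, and in each gene the groups did not overlap. Levels are given as CPM, read counts scaled to the size of the library, with library sizes corrected by the trimmed mean of M-values (TMM), and were tested with the edgeR quasi-likelihood test at a false discovery rate (FDR) of 0.05, adjusted by the Benjamini-Hochberg method over all 15099 features. Of these features, 12.7% were called higher and 11.1% lower, 23.8% in all, and in 6% all monocrotaline libraries exceeded all vehicle libraries, as they did in each of the 4 genes. CPM is not corrected for transcript length, so levels are compared within a gene only. In bulk tissue, more cells that carry a transcript and more of it per cell cannot be told apart. Whether the libraries come from separate animals is not stated, and the p-values cover only the spread seen among the 11.

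**Figure D1:**
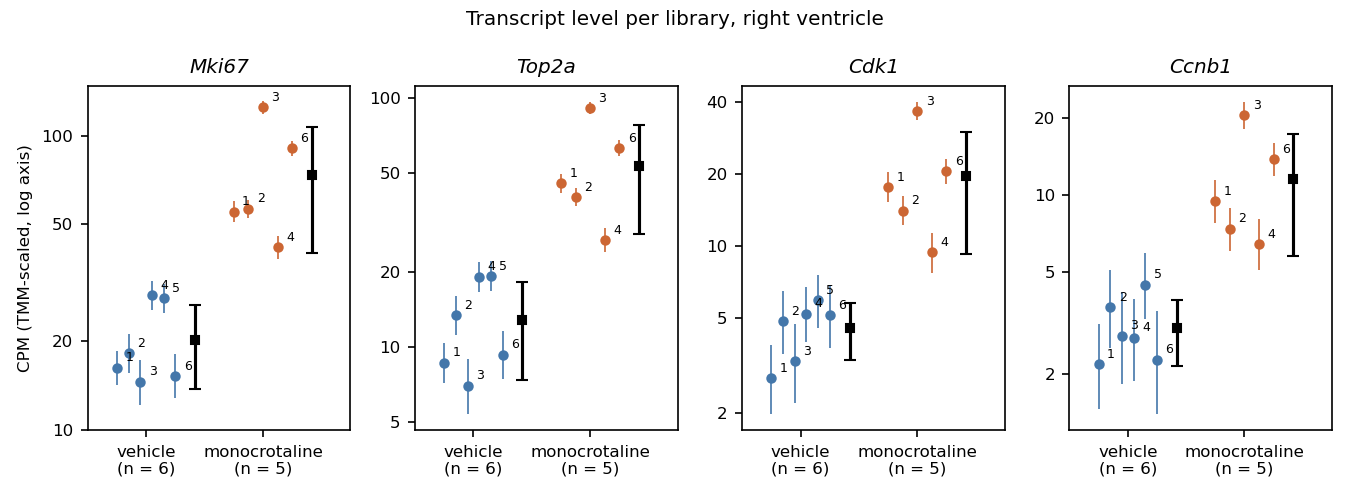
CPM (TMM-scaled, log axis) of Mki67, Top2a, Cdk1 and Ccnb1 in each of the 6 vehicle (blue) and 5 monocrotaline (orange) libraries, with the replicate number beside each point, its 95% Poisson interval as a thin line, and the group mean ± SD as a black square with bars. Every orange point lies above every blue point in each panel, and replicate 3 is the highest and replicate 4 the lowest monocrotaline library throughout.

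Cdk1, the kinase whose activity starts mitosis, had the largest fitted fold of the 4 genes, though the intervals of all 4 overlapped. With vehicle it lay between 2.79 and 5.90 CPM, with a median of 4.98 CPM. In monocrotaline replicates 1, 2, 3, 4 and 6 it stood at 17.7, 14.1, 36.8, 9.39 and 20.6 CPM. The lowest monocrotaline library was thus 1.59 times the highest vehicle library, and the counting intervals of those libraries did not overlap (7.71 to 11.3 CPM against 4.53 to 7.57 CPM). The mean was 4.52 ± 1.21 CPM with vehicle (SD, n = 6), and it rose to 19.7 ± 10.4 CPM (SD, n = 5). The log2 fold change of Cdk1 was 2.12 with SE 0.32 (edgeR, adjusted p = 0.00122), a fold of 4.36 with a 95% interval of 2.72 to 6.998.

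Ccnb1, the cyclin partner of Cdk1, was counted most thinly, with 20 to 47 reads in a vehicle library and 75 to 267 in a monocrotaline library. Its vehicle values ran from 2.19 to 4.47 CPM, with a median of 2.80 CPM. Monocrotaline replicates 1, 2, 3, 4 and 6 had 9.51, 7.41, 20.6, 6.46 and 13.8 CPM. The groups did not overlap, but the counting interval of the lowest monocrotaline library, 5.08 to 8.10 CPM, overlapped that of the highest vehicle library, 3.29 to 5.95 CPM. Ccnb1 averaged 3.03 ± 0.877 CPM with vehicle (SD, n = 6) and rose to 11.6 ± 5.80 CPM (SD, n = 5). Its log2 fold change was 1.93 with SE 0.31 (edgeR, adjusted p = 0.00142), a fold of 3.81 with a 95% interval of 2.41 to 6.02.

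Top2a, the gene of the enzyme that untangles replicated DNA, varied most among the vehicle libraries. It ran from 7.01 to 19.3 CPM there, with a median of 11.4 CPM, and vehicle replicates 4 and 5 stood highest at 19.2 and 19.3 CPM. Monocrotaline replicates 1, 2, 3, 4 and 6 stood at 45.6, 39.97, 91.2, 26.97 and 63.0 CPM. The lowest of these was 1.40 times the highest vehicle value, the narrowest gap of the 4 genes. The vehicle mean of Top2a was 12.8 ± 5.41 CPM (SD, n = 6), and the level rose to 53.4 ± 24.8 CPM (SD, n = 5). The log2 fold change was 2.05 with SE 0.34 (edgeR, adjusted p = 0.00199), a fold of 4.15 with a 95% interval of 2.49 to 6.92.

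Mki67, the gene of the Ki-67 antigen, had the most reads of the 4, with 129 to 320 in a vehicle library and 486 to 1617 in a monocrotaline library. Vehicle values lay between 14.6 and 28.7 CPM, with a median of 17.3 CPM, and replicates 4 and 5, at 28.7 and 27.99 CPM, stood apart from the other vehicle libraries, which did not pass 18.2 CPM. Monocrotaline replicates 1, 2, 3, 4 and 6 had 55.3, 56.5, 124.8, 41.9 and 90.6 CPM. No vehicle library reached the lowest of them. Mki67 had a mean of 20.2 ± 6.44 CPM with vehicle (SD, n = 6) and rose to 73.8 ± 33.7 CPM (SD, n = 5). Its log2 fold change was 1.87 with SE 0.29 (edgeR, adjusted p = 0.00142), a fold of 3.65 with a 95% interval of 2.36 to 5.65.

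Rises of this size were uncommon among the tested features. A larger log2 fold change than that of Cdk1 was found in 92 features, or 0.609% of those tested, and a larger one than that of Mki67, the smallest of the 4, in 162 features, or 1.07%. Features called higher and more than 3-fold up, as all 4 genes were, made up 1.78% of the total. Over all tested features the log2 fold change had a median of −0.01, and over those called higher a median of 0.82. The authors' deposited table gave log2 fold changes of 1.86 for Mki67, 2.05 for Top2a, 2.12 for Cdk1 and 1.92 for Ccnb1. The adjusted p-values in the authors' deposited table ran from 2.80e-08 for Cdk1 to 6.31e-07 for Ccnb1. They were far smaller than those of the edgeR test used here. DESeq2, another test tried on these counts, gave adjusted p from 7.84e-09 for Cdk1 to 2.01e-07 for Ccnb1. The authors' deposited table called 11.3% of its 16646 features higher at an FDR of 0.05.

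**Figure D2:**
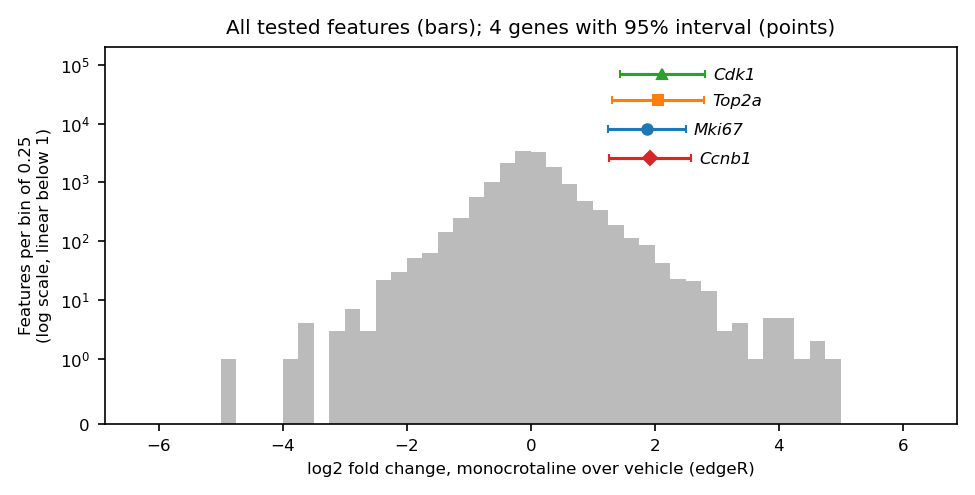
Number of tested features (grey bars, log axis that is linear below 1) by log2 fold change of monocrotaline over vehicle in bins of 0.25, with the 4 genes as points and their 95% intervals as bars, placed at arbitrary heights. All 4 points lie between 1.87 and 2.12, in the upper tail of the bars.

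Relative to the vehicle mean, the same monocrotaline libraries stood high and low in all 4 genes. The measured order of the vehicle libraries differed between genes, within the limits of counting given below. Monocrotaline replicate 3 was the highest library in all 4, at 6.39 times the vehicle mean (a mean of log2 values) for Mki67, 7.57 times for Top2a, 8.13 times for Cdk1 and 6.67 times for Ccnb1. Monocrotaline replicate 6 was second in all 4, between 4.50 and 5.23 times. Monocrotaline replicate 4 was the lowest of its group in all 4, between 2.10 and 2.25 times. How many of all tested features share this order of the monocrotaline libraries was not counted. On the log2 scale, replicate 4 had moved 55.7% of the way from the vehicle mean to the mean of the other monocrotaline libraries for Mki67, 52.1% for Top2a, 48.6% for Cdk1 and 55.8% for Ccnb1. Monocrotaline replicate 1 lay above replicate 2 in Top2a, Cdk1 and Ccnb1 and just below it in Mki67. Among the vehicle libraries, replicate 5 was the highest or second in all 4 genes, but replicate 4 was the highest in Mki67 and lay below the vehicle mean in Ccnb1. The lowest vehicle library was replicate 3 in Mki67 and Top2a and replicate 1 in Cdk1 and Ccnb1. Counting error limits these ranks. In Cdk1 the counting intervals of vehicle replicates 1 (1.965 to 3.85 CPM) and 3 (2.20 to 4.71 CPM) overlapped. So did those of vehicle replicates 1 (1.465 to 3.14 CPM) and 6 (1.39 to 3.52 CPM) in Ccnb1. Among monocrotaline libraries, those of replicates 4 (5.08 to 8.10 CPM) and 2 (6.075 to 8.96 CPM) overlapped in Ccnb1. Whether the vehicle order differs between genes beyond counting error was not tested.

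**Figure D3:**
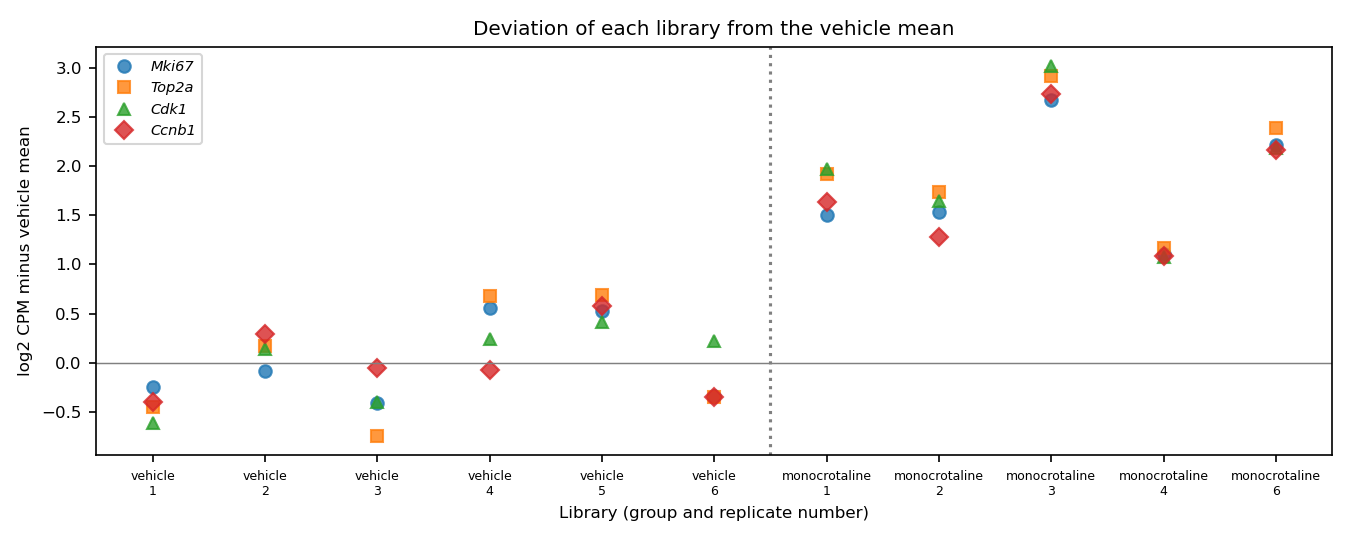
Log2 CPM of each gene minus its mean over the 6 vehicle libraries (vertical axis) for the 11 libraries, named by group and replicate number, with a dotted line between the groups. The 4 symbols of a library lie close together in the monocrotaline group, from about 1.1 in replicate 4 to between 2.67 and 3.02 in replicate 3.

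The spread between monocrotaline libraries was wider than counting alone gives. The coefficient of variation of CPM in that group was 45.7% for Mki67, 46.5% for Top2a, 53% for Cdk1 and 50.1% for Ccnb1, where counting error at these depths gives 3.27%, 3.85%, 6.34% and 8.29%. The highest monocrotaline library was 2.98 times the lowest for Mki67 and 3.92 times for Cdk1. Among the vehicle libraries the coefficient was 31.9% for Mki67 and 42.2% for Top2a, against 6.89% and 8.65% from counting. For Cdk1 and Ccnb1 in the vehicle group it was 26.8% and 28.9%, against 14.7% and 18%, so that counting was a larger part of their spread.

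Monocrotaline replicate 3, the highest library in all 4 genes, also stood apart in other measures. It had reads in 29846 features, and vehicle replicates 5 and 6 had reads in 28209 and 30593, against 19825 to 21524 in the other 8 libraries. Its TMM factor of 1.273 was the highest of the 11, where the others ran from 0.912 to 1.084. Scaled to its total count over all features, with no filter and no factor, its Mki67 level was 156.6 CPM in place of 124.8 CPM. Of the vehicle libraries with reads in many features, replicate 5 stood above replicate 6 in Mki67 (27.99 and 15.3 CPM) and Top2a (19.3 and 9.35 CPM). Their counting intervals did not overlap in these genes. In Cdk1 both were alike, at 5.90 and 5.13 CPM, with overlapping counting intervals. What part detection has in these levels was not tested. Without monocrotaline replicate 3 the log2 fold changes were 1.601 for Mki67, 1.78 for Top2a, 1.78 for Cdk1 and 1.62 for Ccnb1, and all 4 stayed called (edgeR, adjusted p from 0.00153 to 0.00434). In the 8 other libraries alone, 4 in each group, they were 1.65, 1.86, 1.94 and 1.71 (edgeR, adjusted p from 0.00365 to 0.0109). With the number of features detected, above or below 25000, as a covariate on all 11 libraries, they were 1.88, 2.07, 2.16 and 1.96.

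Scaling moved the size of the rise slightly and not its direction. With library totals and no TMM factor, the log2 fold changes were 2.12 for Mki67, 2.30 for Top2a, 2.39 for Cdk1 and 2.18 for Ccnb1, the highest of the settings tried for each gene. The median over all tested features moved by about the same amount, to 0.21, and the calls went from 1917 higher and 1678 lower to 3541 higher and 986 lower.

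**Figure D4:**
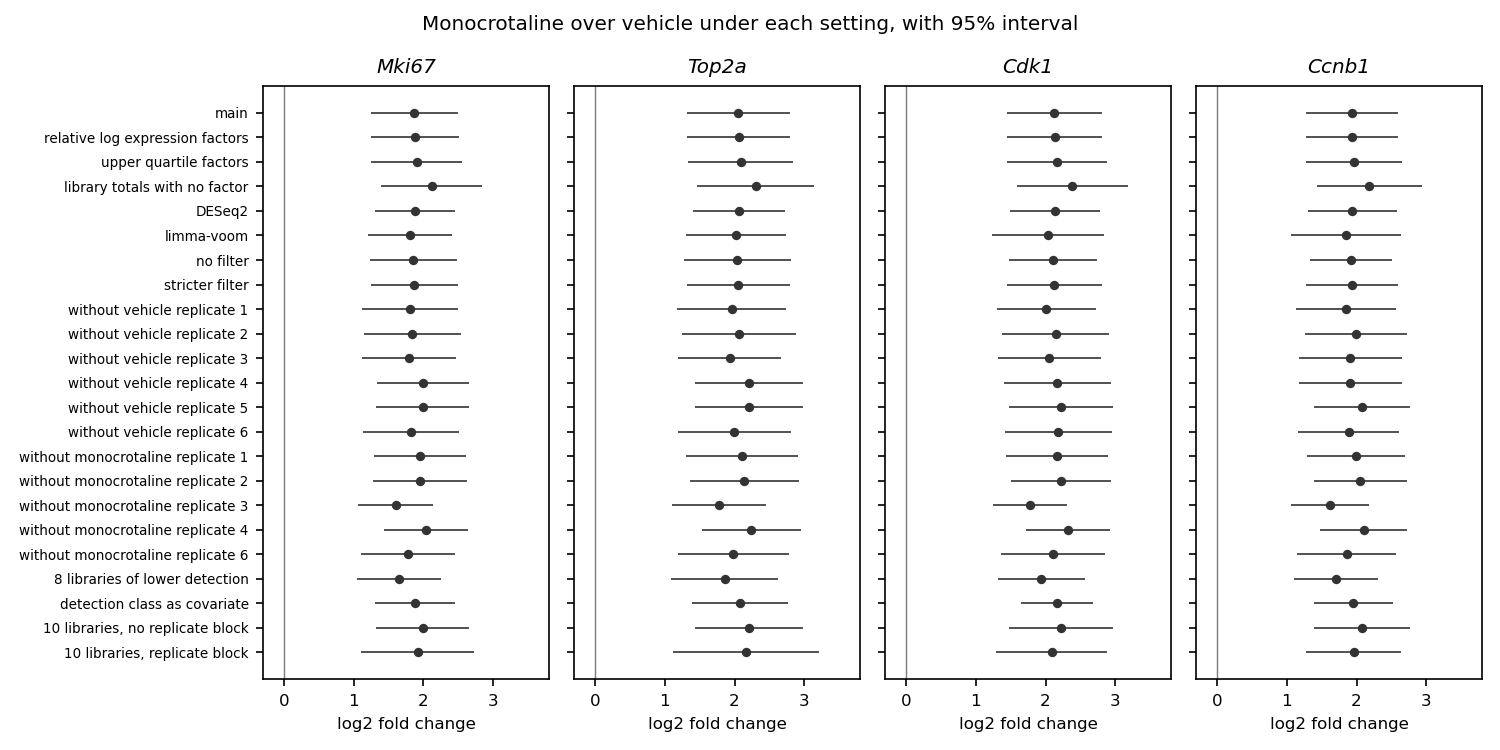
Log2 fold change of monocrotaline over vehicle (horizontal axis) with its 95% interval for each gene under the main analysis and 22 other settings, one per row (the rows for 10 libraries with no block and without vehicle replicate 5 are the same fit). All intervals lie to the right of the grey line at 0, and the lowest values are those without monocrotaline replicate 3.

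Whether the 4 genes rose by the same factor was asked from the ratio of a pair of genes within each library, which no scaling factor changes. None of the 6 pairs passed an exact two-sided permutation test of the 11 libraries at 0.05. The largest difference was in Top2a over Mki67. Its read ratio averaged 0.620 ± 0.0978 over vehicle libraries (SD, n = 6) and 0.720 ± 0.0664 over monocrotaline libraries (SD, n = 5), which gave an exact permutation p of 0.0952 (0.571 after Benjamini-Hochberg adjustment over the 6 pairs). On the log2 scale that ratio was higher by 0.23, with a 95% interval of −0.05 to 0.50. Monocrotaline replicate 1, at 0.825, was the only monocrotaline library above the highest vehicle library, replicate 2 at 0.735.

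For the cyclin and its kinase no difference in ratio was detectable at these depths. Ccnb1 over Cdk1 averaged 0.690 ± 0.162 over vehicle libraries (SD, n = 6) and 0.597 ± 0.0772 over monocrotaline libraries (SD, n = 5), a log2 difference of −0.18 with a 95% interval of −0.58 to 0.27 (exact permutation p = 0.351, adjusted p = 0.644). For Ccnb1 over Mki67 the log2 difference was 0.03, with an interval of −0.36 to 0.43, and for Cdk1 over Top2a it was −0.02, with an interval of −0.44 to 0.38. Cdk1 over Mki67 differed by 0.21 (−0.23 to 0.62) and Ccnb1 over Top2a by −0.20 (−0.66 to 0.28). These intervals leave room for differences as far out as −0.66 on the log2 scale, so equal rises were not shown.

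**Figure D5:**
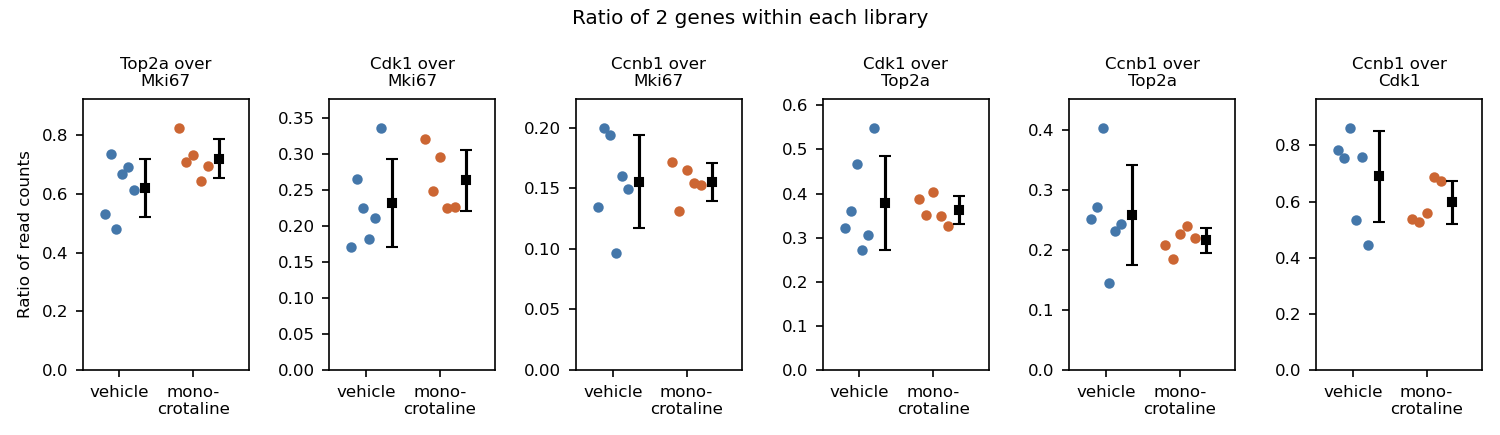
Ratio of read counts of 2 genes within each library for the 6 pairs (vertical axes from 0), with vehicle libraries in blue, monocrotaline libraries in orange, and the group mean ± SD as a black square with bars. The groups overlap in all 6 panels.

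Likeness between features was measured by Pearson's r of log2 CPM over the 11 libraries, once as it stood and once after each group's mean was subtracted. The r values are given as a description: the points share their libraries, and 15098 features were searched for each gene. Mki67 and Top2a were the closest pair, with r = 0.991 as it stood and 0.961 within groups. Of the other 15098 features, Top2a ranked 2 in likeness to Mki67 within groups, and Mki67 ranked 3 in likeness to Top2a. Cdk1 and Ccnb1 had r = 0.861 within groups, where Ccnb1 ranked 77 in likeness to Cdk1. The lowest within-group value of the 6 pairs, 0.823, was that of Top2a and Ccnb1.

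The features most like the mean profile of the 4 genes are given as a description, since that profile holds the rise with monocrotaline and features chosen by it are chosen for that rise. ENSRNOG00000015423 and ENSRNOG00000016377 led both rankings, with r = 0.996 and 0.992 over all 11 libraries and 0.986 and 0.967 within groups. ENSRNOG00000015423 averaged 3.204 ± 1.01 CPM with vehicle (SD, n = 6) and 11.5 ± 5.999 CPM with monocrotaline (SD, n = 5). ENSRNOG00000016377 averaged 1.59 ± 0.543 CPM (SD, n = 6) with vehicle and 6.90 ± 3.90 CPM with monocrotaline (SD, n = 5). The within-group measure is no independent choice either, since much of the within-group spread is that between monocrotaline replicates 3 and 4. The files do not pair these IDs with gene names, so other cell cycle genes, brakes on division and the markers of cell types were not analysed here. Which cells carried the 4 transcripts, and whether the tissue markers fit the labels, was therefore not tested.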

How the data were processed

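Total RNA of dissected right ventricles was made into stranded, ribosome-depleted libraries for Illumina NextSeq sequencing, per the labels' protocols. Among the tools in the submitters' processing notes are HISAT2 and StringTie, with bcl2fastq, FastQC and cutadapt. Versions, genome build and strand setting were not given in the sources used here. For 11 libraries, the authors deposited whole-number read counts with no normalization for 29682 Ensembl IDs and 7868 assembled loci, and a table of log2 fold changes, log2 CPM, p-values and FDR whose test is not given. Reads shared with overlapping genes or near-identical copies were not examined, and 0 columns belonged to other samples.

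The 4 genes and all gene lists were chosen with earlier results of these data known. Totals ran from 9581924 to 14438355 counts, and no library was a copy of another (lowest chi-square per degree of freedom 15.5 over the 55 pairs). Groups were compared by the quasi-likelihood test of edgeR 4.0.16 (R 4.3.3) with robust estimates, TMM factors, filterByExpr defaults (minimum count 10, minimum total 15), no covariate and Benjamini-Hochberg adjustment over 15099 features. The SE of a log2 fold change was its size divided by the square root of F. Log2 CPM used a prior count of 2. Counting intervals are exact 95% Poisson intervals and cover counting error only. Intervals of ratio differences come from inverting the exact permutation test. The test was tried on simulated counts of this comparison (14894 features). Among 65 features given a 1.5-fold change 13.8% were called, and among 65 given a 2-fold change 56.9%. Among 66 given a 4-fold change 95.5% were called, and 1 call was false. The simulation built in no library that stands apart, as monocrotaline replicate 3 did, and no difference in detection, so its figures do not cover these. Alternatives were other scaling factors, no filter and a stricter one (1 CPM in at least 5 libraries), DESeq2 1.42.0, limma-voom (limma 3.58.1), leaving out each library, the 8 libraries with reads in at most 25000 features, that class as a covariate, and the replicate number as a block.

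The rule for named genes asked for the 5 features most like the mean profile of the 4 genes, or 2 where IDs have no names, by each measure of likeness. As 0 IDs matched the RefSeq gene table, 2 are named, and the 5 pathway lists and 10 marker lists were not analysed.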

Additional observations from a re-analysis of the deposited data

How the results depend on the processing

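All 4 genes were called higher by edgeR, DESeq2 or limma-voom in each of the 22 alternatives to the main fit, of which the 10 libraries with no replicate block and the fit without vehicle replicate 5 are the same. Log2 fold changes over these ran from 1.601 to 2.12 for Mki67, 1.78 to 2.30 for Top2a, 1.78 to 2.39 for Cdk1 and 1.62 to 2.18 for Ccnb1. The largest adjusted p-values were 0.0114, 0.0193, 0.00753 and 0.00526. Leaving out each library gave 1.601 to 2.04, 1.78 to 2.24, 1.78 to 2.32 and 1.62 to 2.10, with the highest values without monocrotaline replicate 4. The exact permutation p of log2 CPM was 0.00216 for each gene, the smallest that the splits can give.

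Deviations from the group mean correlated between libraries of the same number by 0.06, −0.03, −0.21, 0.16 and −0.20, and the labels give no pairing. With the replicate block on 10 libraries the log2 fold changes were 1.92 for Mki67, 2.16 for Top2a, 2.09 for Cdk1 and 1.96 for Ccnb1, and without the block 1.99, 2.21, 2.22 and 2.08. Over all features the block gave 1348 higher and 1231 lower, against 1731 and 1441.

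The number of features called in 1 direction moved by over 1.5 times with no TMM factor (given above), in the 8 libraries of lower detection (1087 higher, 653 lower, with fewer samples) and with no filter (1410 higher, 971 lower, of 33648 tested). The cause of the last was not tested.

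The pair ratios were added after seeing the data. Leaving out each library gave log2 differences of 0.16 to 0.28 for Top2a over Mki67, 0.13 to 0.32 for Cdk1 over Mki67, −0.10 to 0.11 for Ccnb1 over Mki67, −0.11 to 0.10 for Cdk1 over Top2a, −0.35 to −0.057 for Ccnb1 over Top2a and −0.30 to −0.11 for Ccnb1 over Cdk1. Only without vehicle replicate 2, for Top2a over Mki67 (0.28, exact permutation p = 0.0397), and without vehicle replicate 4, for Ccnb1 over Top2a (−0.35, exact permutation p = 0.0159), did an unadjusted p fall under 0.05. The sign changed without vehicle replicate 1 (−0.006), vehicle replicate 4 (−0.10) or monocrotaline replicate 1 (−0.01) for Ccnb1 over Mki67. For Cdk1 over Top2a it changed without vehicle replicate 3 (0.05), vehicle replicate 6 (0.10) or monocrotaline replicate 6 (0.02), and in the 8 libraries of lower detection (0.019). Depth limits Ccnb1 most, with 20 to 47 reads per vehicle library.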
